A study of Mus musculus with 11 samples.

Results

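The endothelial and vessel genes described here are 34 named genes whose products build or mark the inner lining of blood and lymph vessels, out of 23420 gene symbols in the count table. They were chosen by name, with earlier results of these data known. All 34 were found under those names, and all 34 were among the 14531 genes that passed the filter on low counts. The tissue was the mandibular condylar fibrocartilage, the cap of fibrous and cartilaginous tissue on the jaw joint, taken whole from female C57BL/6 mice. Every group had been ovariectomized at 6 weeks of age and was sampled at 7 weeks, after 1 week with a slow-release pellet. The 4 groups were wild type (WT) with placebo (2 libraries), WT with 17β-estradiol (3 libraries), a knockout of estrogen receptor alpha (ERalphaKO, here KO) with placebo (3 libraries) and KO with 17β-estradiol (3 libraries). The estradiol pellet held 0.01 mg for release over 60 days. The labels give no allele or construct for the knockout, describe the material as all cells of the tissue, and do not state whether libraries came from separate animals. The p-values therefore rest on a spread between libraries that may be partly technical.

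Endothelial cells line every vessel, and vascular endothelial growth factors (VEGFs), angiopoietins, Notch ligands and apelin are the main signals that tell them to sprout, to stabilise or to become an artery or a vein. Cartilage proper has no vessels, whereas the fibrous layer and the bone and marrow beneath the condyle are supplied by them. Estrogen receptor alpha is expressed in endothelium, where it is known for raising nitric oxide production by the enzyme Nos3.

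Each library held 15.7 to 25.5 M counts (M, 1e6). Esr1, the gene that encodes the receptor, lay at 6.43 to 13.4 CPM (counts per M of the library total after TMM scaling) in the WT libraries and at 2.55 to 4.86 CPM in the KO libraries, and under estradiol it was lower in KO (log2 -1.11, SE 0.28, adjusted p = 0.0257). WT placebo replicate 2 stood apart, with 16.0% of its counts on the ribosomal RNA gene Rn45s against 1.83% to 3.13% in the others. Markers of bone marrow cells also differed between libraries. The 15 genes of the neutrophil lineage summed to 9.12 to 45.0 CPM in WT estradiol and to 1309 to 4750 CPM in KO estradiol, with 1.61 to 766 CPM in KO placebo and 226 to 508 CPM in WT placebo. Their part in the results below was not tested.

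The promoters of 4 of the genes that differed between genotypes under estradiol are shown first, because the ETS family of transcription factors is known to control many endothelial genes and its core letters recur in most of the promoters examined. RefSeq promoter windows (GRCm38.p6, 250 bases before to 50 after a gene's start) were at hand for 17 of the 34 genes, and the printed windows are all on the plus strand: Emcn at chr3:137340828-137341127, the second of 3 tabled starts of Egfl7 at chr2:26583615-26583914, Notch4 at chr17:34564045-34564344 and Cldn5 at chr16:18776597-18776896. Capitals mark AGGAAG or CGGAAG, read on either strand; the count table itself was made on the older build mm9.
Emcn: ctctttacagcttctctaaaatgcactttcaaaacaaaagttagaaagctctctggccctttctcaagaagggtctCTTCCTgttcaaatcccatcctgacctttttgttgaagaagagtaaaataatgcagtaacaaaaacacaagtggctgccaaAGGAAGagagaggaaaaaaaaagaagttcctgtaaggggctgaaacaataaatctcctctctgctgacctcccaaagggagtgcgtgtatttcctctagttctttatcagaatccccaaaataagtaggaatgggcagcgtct
Egfl7: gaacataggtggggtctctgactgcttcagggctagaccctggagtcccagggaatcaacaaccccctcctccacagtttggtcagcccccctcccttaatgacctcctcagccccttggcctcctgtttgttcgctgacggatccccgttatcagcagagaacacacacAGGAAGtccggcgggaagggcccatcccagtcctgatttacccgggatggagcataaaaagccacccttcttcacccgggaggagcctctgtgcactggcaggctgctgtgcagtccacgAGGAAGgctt
Notch4: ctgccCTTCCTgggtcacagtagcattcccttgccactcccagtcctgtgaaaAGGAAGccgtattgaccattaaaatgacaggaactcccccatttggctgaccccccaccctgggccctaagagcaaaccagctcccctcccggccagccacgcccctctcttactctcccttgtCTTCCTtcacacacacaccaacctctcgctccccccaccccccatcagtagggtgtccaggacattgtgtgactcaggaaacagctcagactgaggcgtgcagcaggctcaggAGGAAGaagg
Cldn5: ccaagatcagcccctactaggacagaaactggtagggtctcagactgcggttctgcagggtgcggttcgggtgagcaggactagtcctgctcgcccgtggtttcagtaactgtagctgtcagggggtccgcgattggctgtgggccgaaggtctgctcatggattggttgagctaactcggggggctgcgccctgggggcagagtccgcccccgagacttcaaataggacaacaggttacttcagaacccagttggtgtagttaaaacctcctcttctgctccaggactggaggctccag

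Emcn and the printed start of Egfl7 each held 2 of these ETS letters, Notch4 held 4, and Cldn5 held none in its window. Of the 17 genes, 11 had at least 1 match in any of their windows. Counted by promoter, 12 of their 19 windows had a match, and so had 46.5% of all 32851 tabled promoters. Among the 8 genes with a promoter that were lower in KO than in WT under estradiol, 7 had an ETS match. A palindromic estrogen response element, GGTCA and its reverse complement 3 bases apart, was in none of the 17 genes' windows and in 0.07% of all promoters. The half-site AGGTCA, on either strand, was in 3 of the 19 windows (of Egfl7, Emcn and Robo4) and in 16.3% of all promoters. The SOX core ACAAT, on either strand, was in 7 of the 19 windows and in 31.0% of all promoters. These 7 windows belonged to 7 of the 17 genes, Notch4 and Emcn among them. A match of letters describes the window and does not show binding.

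The endothelial markers were well detected in this tissue. Per kilobase of exon, the most abundant member was Plvap, which forms the diaphragms of fenestrated endothelium, with a median of 51.4 CPM per kb over the 11 libraries. S1pr1, the receptor for sphingosine 1-phosphate, followed with 45.2 CPM per kb, then the transforming growth factor co-receptor Eng with 30.0, the apelin receptor Aplnr with 24.9 and the junction cadherin Cdh5 with 21.9 CPM per kb. The lowest per length were Vwf, the clotting factor carrier, with 0.330 CPM per kb, and the hyaluronan receptor Lyve1, a marker of lymphatic vessels and some macrophages, with 1.54 CPM per kb. These lengths are exon unions of GENCODE M21, not of the annotation used for counting. Within groups, the members had a median coefficient of variation of 10.5%, against 12.1% over all genes tested; Vwf (39.0%) and Lyve1 (35.2%) varied most and S1pr1 (4.37%) least.

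Added up, the 34 genes made 1519 ± 112 CPM with placebo (SD, n = 2) and 1713 ± 63.8 CPM with estradiol (SD, n = 3) in WT, and 1507 ± 61.7 CPM with placebo (SD, n = 3) and 1376 ± 63.7 CPM with estradiol (SD, n = 3) in KO. By library the sum was 1598 and 1440 CPM in WT placebo, 1743, 1756 and 1640 in WT estradiol, 1567, 1511 and 1444 in KO placebo, and 1323, 1359 and 1447 in KO estradiol. All 3 WT estradiol libraries lay above every other library, while KO estradiol replicate 3 lay within the range of KO placebo. WT estradiol had the highest group mean for 24 of the 34 genes, and KO estradiol had the lowest group mean for 24 of the 34. In bulk tissue, fewer endothelial cells and less of these RNAs per cell cannot be told apart. No p is given for these sums, because the genes were chosen with earlier results of these data known.

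The comparison of KO with WT under estradiol asked whether the vessel genes of estradiol-treated tissue depended on the receptor's genotype. Of the 34 genes, 12 were lower in KO and 0 higher at an adjusted p under 0.05 in edgeR's quasi-likelihood test, whereas 4.2% of all genes tested were lower, 7.27% higher and 11.5% different in either direction. The 12 were Egfl7, Emcn, Esam, Podxl, Aplnr, Cldn5, Rasip1, Cd34, Notch4, Apln, Tie1 and Nos3. The median log2 difference of all 34 was -0.29, against -0.00099 over all genes tested, and 32 of the 34 lay below 0, where 50.2% of all genes did. An unadjusted p under 0.05 was reached by 20 members on the lower side (12% of all genes) and by 1 on the higher (14.9% of all genes). For 18 genes every KO estradiol library lay below every WT estradiol library (16.9% of all genes), and for 1, Clec14a, every one lay above (17.7% of all genes).

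**Figure D1:**
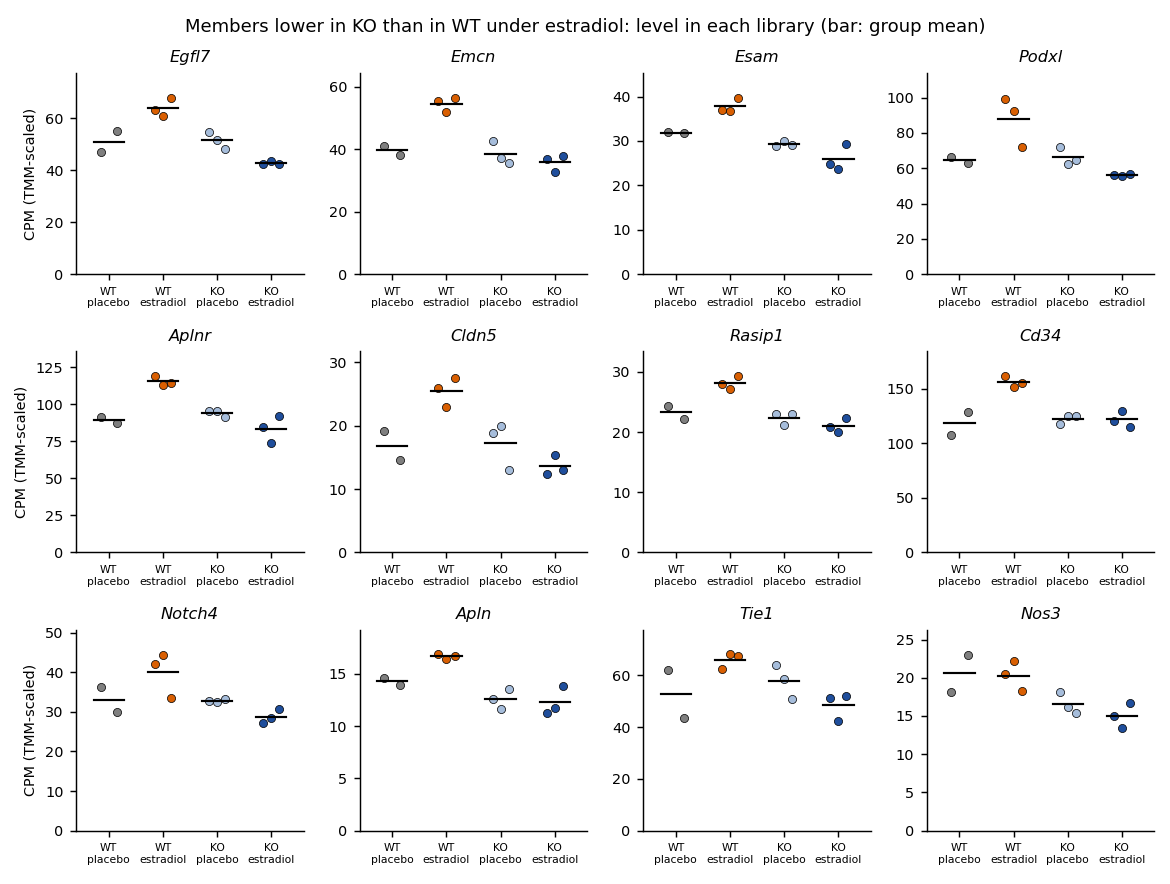
Level of the 12 members that were lower in KO than in WT under estradiol, in CPM on the vertical axis from 0, for each library of the 4 groups (points) with the group mean (bar). The WT estradiol libraries lie above all KO estradiol libraries in each panel, and for Egfl7, Emcn, Esam, Podxl, Aplnr, Cldn5, Rasip1, Cd34 and Apln they also lie above every placebo library.

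Among the junction and surface proteins, 5 of 14 were lower in KO. Emcn, the sialomucin endomucin of veins and capillaries, was at 55.3, 52.1 and 56.3 CPM in WT estradiol and at 37.0, 32.6 and 37.8 CPM in KO estradiol, a log2 difference of -0.61 (SE 0.09, adjusted p = 0.00145). The gap between the groups was wider than the range within either. Cldn5, the claudin that seals endothelial tight junctions, showed the widest log2 difference of the 34 genes, -0.90 (SE 0.17, adjusted p = 0.00501). Its levels were 25.9, 22.9 and 27.6 CPM in WT estradiol and 12.4, 15.4 and 13.0 CPM in KO estradiol, without overlap. Podxl, a CD34-family sialomucin that opens vessel lumens and is also made by other cell types, was at 99.4, 92.7 and 71.9 CPM in WT estradiol and at 56.3, 55.9 and 56.9 CPM in KO estradiol (log2 -0.64, SE 0.11, adjusted p = 0.00285). The 3 KO libraries were nearly level, and WT estradiol replicate 3 sat closest to them. Esam, an adhesion molecule of endothelial junctions, was at 37.0, 36.7 and 39.6 CPM against 24.8, 23.7 and 29.3 CPM (log2 -0.54, SE 0.09, adjusted p = 0.00278). Cd34, a sialomucin of endothelium and of blood and stromal progenitors, was at 162, 151 and 155 CPM against 121, 129 and 115 CPM (log2 -0.36, SE 0.08, adjusted p = 0.0166).

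The other 9 surface proteins were not called. Cdh5, the cadherin that holds endothelial cells together, was at 109, 109 and 86.1 CPM in WT estradiol and at 78.1, 80.1 and 92.1 CPM in KO estradiol, and the groups overlapped (log2 -0.28, SE 0.14, adjusted p = 0.220). Pecam1, the adhesion molecule CD31 of endothelium and of several blood cells, was at 98.3, 99.8 and 92.3 CPM against 78.9, 81.4 and 84.9 CPM. Its groups did not overlap, yet the log2 difference of -0.24 (SE 0.08) missed the threshold with an adjusted p of 0.0666. Plvap gave a similar value, -0.25 (SE 0.08, adjusted p = 0.0642). Clec14a, a C-type lectin of sprouting vessels, was the 1 member whose KO libraries all lay above WT, at 31.2, 30.2 and 32.5 CPM against 21.5, 23.2 and 29.8 CPM (log2 0.33, SE 0.14, adjusted p = 0.160).

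The 5 receptors for VEGFs and angiopoietins all lay below 0, and 1 of them was called. Tie1, the partner of the angiopoietin receptor, was at 62.4, 68.1 and 67.4 CPM in WT estradiol and at 51.2, 42.3 and 52.1 CPM in KO estradiol (log2 -0.44, SE 0.13, adjusted p = 0.0487). Tek, the angiopoietin receptor itself, was at 37.1, 39.3 and 31.0 CPM against 26.7, 27.7 and 31.6 CPM, with 1 KO library inside the WT range (log2 -0.32, SE 0.11, adjusted p = 0.0889). Kdr, the main signalling receptor for Vegfa, was at 67.2, 68.2 and 44.6 CPM against 45.1, 50.2 and 52.4 CPM (log2 -0.28, SE 0.16, adjusted p = 0.292). WT estradiol replicate 3 had the lowest Kdr level of the 6 libraries. Flt1, a VEGF receptor that also acts as a decoy, was at 40.8, 41.3 and 29.7 CPM against 31.4, 29.6 and 33.6 CPM (log2 -0.24, SE 0.13, adjusted p = 0.242). Flt4, the receptor for Vegfc, gave a log2 difference of -0.20 (SE 0.11, adjusted p = 0.291).

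Both members of the apelin pair were lower in KO under estradiol. Aplnr was at 119, 113 and 115 CPM in WT estradiol and at 84.5, 74.2 and 92.2 CPM in KO estradiol (log2 -0.46, SE 0.08, adjusted p = 0.00377). Its ligand Apln, made by tip cells of sprouts, was at 16.9, 16.4 and 16.7 CPM against 11.3, 11.7 and 13.9 CPM (log2 -0.44, SE 0.11, adjusted p = 0.0251). Neither gene's groups overlapped, and the call of Apln was lost without any 1 of the WT estradiol libraries (adjusted p of up to 0.0935 over all alternatives). The adrenomedullin receptor Calcrl (-0.11, SE 0.11, adjusted p = 0.568), its partner Ramp2 (-0.36, SE 0.15, adjusted p = 0.137) and S1pr1 (-0.01, SE 0.07, adjusted p = 0.926) were not called, all as log2 differences. S1pr1 was the most even of the group, at 126, 140 and 138 CPM in WT estradiol and 128, 139 and 132 CPM in KO estradiol.

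Of the Notch pair, the receptor Notch4 was at 42.2, 44.5 and 33.5 CPM in WT estradiol and at 27.2, 28.4 and 30.8 CPM in KO estradiol (log2 -0.47, SE 0.11, adjusted p = 0.0180). The groups did not overlap, with WT estradiol replicate 3 again the lowest of its group. The ligand Dll4, made by arterial and tip cells, gave a log2 difference of -0.34 (SE 0.16, adjusted p = 0.192). The transcription factors Sox7, Sox17 and Sox18, which work together in endothelial fate, gave log2 differences of -0.30, -0.46 and -0.26, and 0 of the 3 was called (adjusted p = 0.172, 0.127 and 0.195).

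Egfl7, a secreted matrix protein of endothelium whose gene hosts the microRNA miR-126, had the smallest p of the 34 genes. It was at 63.3, 60.8 and 67.8 CPM in WT estradiol and at 42.5, 43.4 and 42.5 CPM in KO estradiol (log2 -0.58, SE 0.08, adjusted p = 0.00104). The 3 KO estradiol libraries were within 1 CPM of each other and below all 8 other libraries. The other secreted members, the matrix protein Mmrn2 (log2 -0.24, SE 0.16, adjusted p = 0.356) and Vwf (log2 0.02, SE 0.41, adjusted p = 0.982), were not called. Both intracellular members were lower in KO. Rasip1, a Ras-interacting protein needed for vessel lumens, was at 27.9, 27.1 and 29.3 CPM against 20.8, 19.9 and 22.3 CPM (log2 -0.42, SE 0.09, adjusted p = 0.00995). Nos3, the endothelial nitric oxide synthase, was at 20.5, 22.2 and 18.2 CPM against 14.96, 13.4 and 16.7 CPM (log2 -0.43, SE 0.13, adjusted p = 0.0493).

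**Figure D2:**
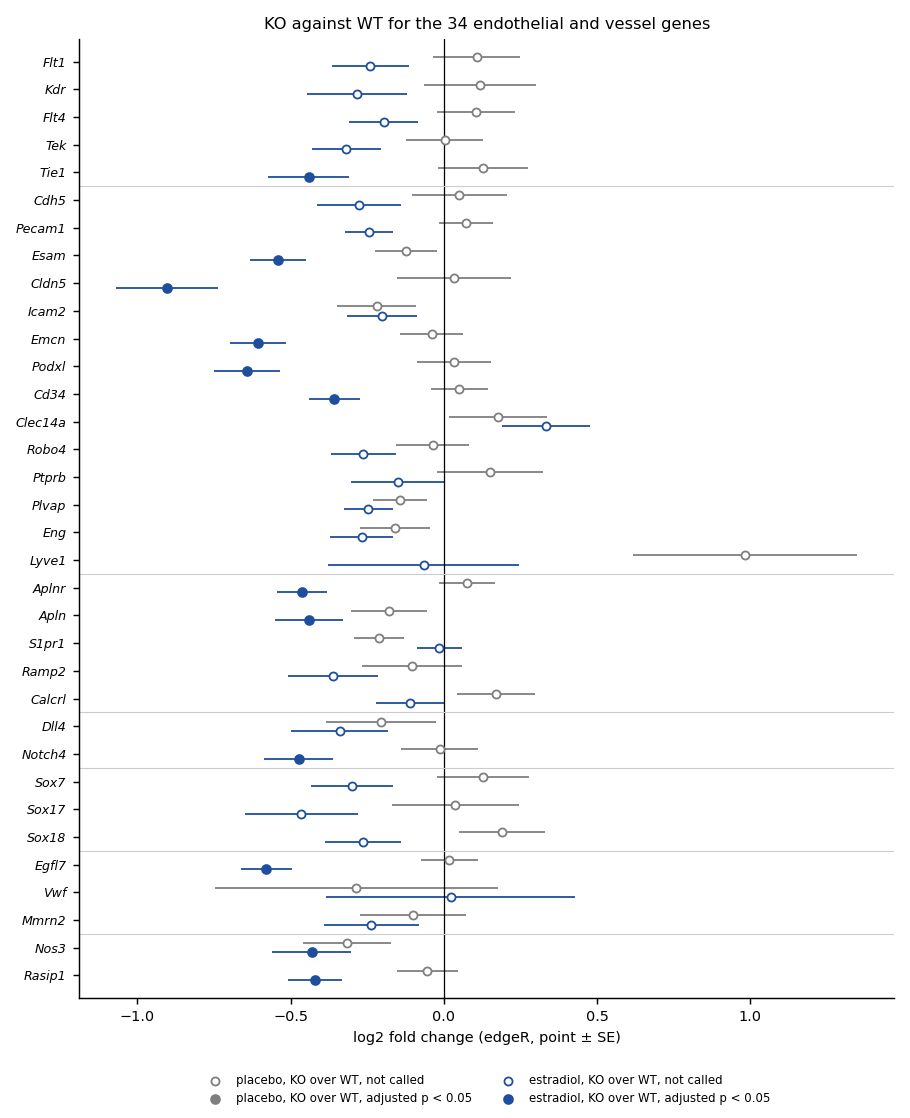
Log2 fold change of KO over WT for each of the 34 genes on the horizontal axis, under placebo (grey) and under estradiol (blue), as points with SE and filled where the adjusted p was under 0.05; grey lines separate the roles. Under estradiol 12 points are filled and 32 lie left of 0, whereas under placebo none is filled and 19 lie right of 0.

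The count of 12 fell to 7 without WT estradiol replicate 1, and Tie1 and Nos3, both just inside the threshold, lost their call in 11 and 16 of 21 alternatives. Apln lost it in 6, among them those without any single WT estradiol library, Notch4 in 4 and Cd34 in 2. Egfl7, Emcn, Esam, Podxl, Aplnr, Cldn5 and Rasip1 kept theirs in all 21. The authors' deposited table for the same comparison also had 12 members lower and 0 higher at an adjusted p under 0.05, and they were the same 12 genes, with 13% of its genes called in all.

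Some of these genes overlap other genes in GENCODE M21, and the sources used here do not say whether the counting used strand. Egfl7 shares exon sequence with Agpat2 on the opposite strand, which did not move with it under estradiol (log2 0.0047, SE 0.11, adjusted p = 0.986). Egfl7 also overlaps Gm20532 on its own strand, with a longest shared stretch of 125 bases against 64 for Agpat2. The level of Gm20532 was not examined. Nos3 overlaps Atg9b on the opposite strand (log2 -0.14, SE 0.34, adjusted p = 0.830). Rasip1 overlaps Izumo1 on its own strand, which was at 0.126 CPM in WT estradiol and at 0.213 CPM in KO estradiol. Ramp2, which was not called, shares up to 637 bases with Vps25 on its own strand (log2 -0.18, SE 0.09, not called).

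Under placebo, the same genotype comparison showed no member called: 0 of 34 in edgeR's quasi-likelihood test, with 3 at an unadjusted p under 0.05, 0 in DESeq2 and 0 in limma-voom. Of all genes tested, 0.00688% were called and 9.21% had an unadjusted p under 0.05. The median log2 difference of the 34 was 0.02, and 19 of the 34 lay above 0 (49.3% of all genes). Emcn was at 41.1 and 38.2 CPM in WT placebo and at 42.7, 37.3 and 35.6 CPM in KO placebo (log2 -0.04, SE 0.10, adjusted p = 0.910). Egfl7 was at 46.8 and 55.0 CPM against 54.7, 51.6 and 48.2 CPM (log2 0.02, SE 0.09, adjusted p = 0.957). Both pairs of groups overlapped. Nos3 was at 18.2 and 23.0 CPM against 18.1, 16.1 and 15.3 CPM, without overlap but not called (log2 -0.31, SE 0.14, adjusted p = 0.541). S1pr1, the least variable member, was at 154 and 152 CPM against 140, 130 and 127 CPM (log2 -0.21, SE 0.08, adjusted p = 0.538). Lyve1 had the smallest p, at 2.10 and 4.49 CPM against 6.81, 6.66 and 5.86 CPM (log2 0.98, SE 0.37, adjusted p = 0.529). Icam2, an adhesion molecule of resting endothelium, and Plvap came next, with log2 differences of -0.22 (SE 0.13, adjusted p = 0.596) and -0.14 (SE 0.09, adjusted p = 0.603). Every KO placebo library lay above both WT placebo libraries for 3 members (13.2% of all genes) and below both for 5 (13.8% of all genes). With 2 WT placebo libraries, one of them rich in Rn45s, a p that misses the threshold does not show that the genotypes were alike.

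For Cdh5, Kdr, Flt1, Tek and Pecam1, the sign of the genotype difference under placebo depended on WT placebo replicate 2. Other junction and receptor markers were nearly level between the WT placebo libraries, such as Esam (32.1 and 31.7 CPM) and Flt4 (20.8 and 21.0 CPM). Cdh5 was at 106 CPM in WT placebo replicate 1 and at 71.0 CPM in replicate 2, and Kdr at 57.6 and 39.7 CPM. Against KO placebo, Cdh5 gave a log2 difference of 0.05 (SE 0.15) with both WT libraries and by -0.21 without replicate 2, neither of them called. Kdr, Flt1, Tek and Pecam1 likewise lay above 0 with it (0.12, 0.11, 0.0032 and 0.07) and below 0 without it (-0.12, -0.04, -0.14 and -0.0064).

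Estradiol against placebo in WT mice tested the hormone's effect where the receptor was intact. Of the 34 genes, 1 was called, Emcn, which was higher with estradiol; 0 were lower. Of all genes tested 0.654% were higher, 0.895% lower and 1.55% different in either direction. Emcn went from 41.1 and 38.2 CPM to 55.3, 52.1 and 56.3 CPM, a 1.38-fold difference (log2 0.46, SE 0.10, adjusted p = 0.0470), with no overlap. In all, 28 of the 34 lay above 0 (50.6% of all genes), with a median log2 difference of 0.22 against 0.0023 for all genes. An unadjusted p under 0.05 was reached by 11 members on the higher side (6.15% of all genes) and by 2, Clec14a and S1pr1, on the lower side (7.87% of all genes). For 15 members every estradiol library lay above both placebo libraries (13.2% of all genes), and for 1, S1pr1, every one lay below (13.8% of all genes).

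Next to Emcn, Cd34 fell just outside the threshold, and Aplnr, Podxl and Egfl7 lay further from it. Cd34 was at 107 and 129 CPM with placebo and at 162, 151 and 155 CPM with estradiol (log2 0.40, SE 0.09, adjusted p = 0.0545). Aplnr was at 91.5 and 87.5 CPM against 119, 113 and 115 CPM (log2 0.37, SE 0.09, adjusted p = 0.0741). Podxl was at 66.6 and 62.9 CPM against 99.4, 92.7 and 71.9 CPM (log2 0.44, SE 0.12, adjusted p = 0.104). In each of these, all 3 estradiol libraries were above both placebo libraries. Egfl7, at 46.8 and 55.0 CPM against 63.3, 60.8 and 67.8 CPM, gave 0.33 (SE 0.09, adjusted p = 0.114). For the pan-endothelial genes the log2 differences were 0.19 for Cdh5 (SE 0.16, adjusted p = 0.667), 0.22 for Pecam1 (SE 0.09, adjusted p = 0.273), 0.30 for Kdr (SE 0.18, adjusted p = 0.534), 0.25 for Flt1 (SE 0.14, adjusted p = 0.494) and 0.14 for Tek (SE 0.13, adjusted p = 0.694). Nos3 was level, with -0.02 (SE 0.14, adjusted p = 0.975). Clec14a went the other way, from 41.4 and 28.9 CPM to 21.5, 23.2 and 29.8 CPM (log2 -0.50, SE 0.16, adjusted p = 0.155).

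Emcn's call in WT was lost in 12 of 21 alternatives, with an adjusted p of up to 0.161, and the count of members called ranged from 0 to 6. Without WT placebo replicate 1 it was 0 and without replicate 2 it was 2, Cd34 higher and Clec14a lower. The authors' deposited table listed 2 members higher with estradiol in WT, Emcn and Aplnr, and 3.34% of its genes were called. Among the marker lists, 5 of 12 B lineage genes and 1 of the 6 adipocyte genes tested were lower in the same comparison (0.895% of all genes). Of 10 osteoclast genes 2 were higher (0.654% of all genes). Other lists had 0 genes called. All 15 neutrophil genes (median log2 -3.96), 9 of 11 megakaryocyte genes (-2.83) and 10 of 11 skeletal muscle genes tested (-2.03) lay below 0. Above 0 lay 11 of 12 macrophage genes (0.42) and 8 of 10 cell division genes (0.55), where 50.6% of all genes did. The part of these lists in the estradiol comparison in WT was not tested.

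**Figure D3:**
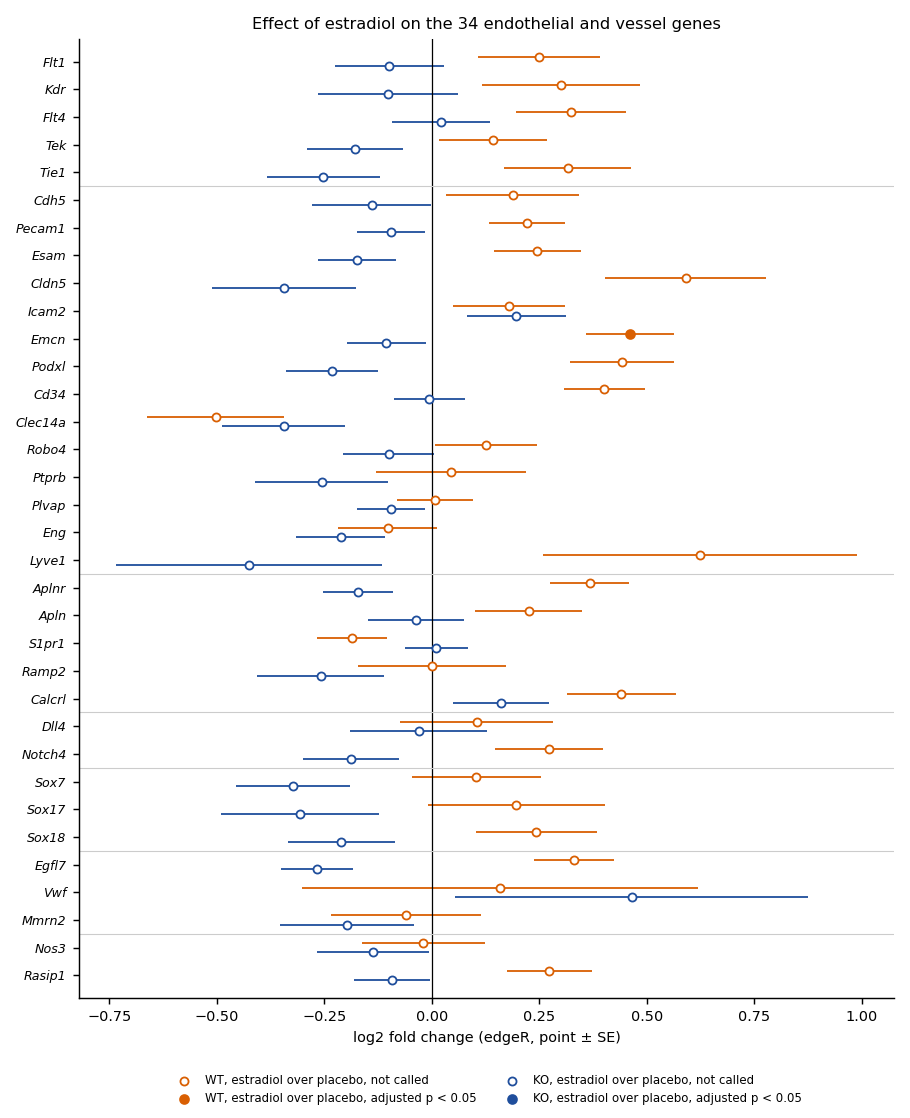
Log2 fold change of estradiol over placebo for each of the 34 genes on the horizontal axis, in WT (orange) and in KO (blue), as points with SE and filled where the adjusted p was under 0.05. In WT 28 points lie right of 0 and Emcn is filled, and in KO 29 points lie left of 0 and none is filled.

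In KO mice, estradiol against placebo called 0 of the 34 members in edgeR's quasi-likelihood test, 0 in DESeq2 and 0 in limma-voom, where edgeR called 2.73% of all genes, 2.36% as higher and 0.365% as lower. At an unadjusted p under 0.05 there were 3 lower (6.8% of all genes) and 0 higher (9.66% of all genes), 16.5% of all genes in both directions. These were Egfl7, Sox7 and Clec14a. Egfl7 was at 54.7, 51.6 and 48.2 CPM with placebo and at 42.5, 43.4 and 42.5 CPM with estradiol (log2 -0.27, SE 0.08, adjusted p = 0.120). Sox7 was at 10.4, 9.75 and 9.51 CPM against 7.26, 7.83 and 8.62 CPM (log2 -0.32, SE 0.13, adjusted p = 0.242). Clec14a was at 40.8, 42.2 and 36.3 CPM against 31.2, 30.2 and 32.5 CPM (log2 -0.35, SE 0.14, adjusted p = 0.243), and the authors' deposited table did list it as lower, as the only member, with 7.52% of its genes called.

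All 3 genes had estradiol libraries wholly below placebo, as had 8 of the 34 in all (12.4% of all genes), and 0 of the 34 had them wholly above (12.4% of all genes). In direction, 29 of the 34 lay below 0 (50.5% of all genes), with a median log2 difference of -0.16 against -0.0026 over all genes. Podxl (-0.23, SE 0.11, adjusted p = 0.307) and Aplnr (-0.17, SE 0.08, adjusted p = 0.318) came next. Emcn gave -0.11 (SE 0.09, adjusted p = 0.634), Cdh5 -0.14 (SE 0.14, adjusted p = 0.693), Pecam1 -0.09 (SE 0.08, adjusted p = 0.622), Kdr -0.10 (SE 0.16, adjusted p = 0.823), Flt1 -0.10 (SE 0.13, adjusted p = 0.770) and Tek -0.18 (SE 0.11, adjusted p = 0.466). In the same comparison 9 of 10 cell division genes were higher (2.36% of all genes), as was 1 gene each of the neutrophil, B lineage and megakaryocyte lists. In the adipocyte list 1 gene was lower (0.365% of all genes). Called or not, all 15 neutrophil genes (median log2 3.11), all 12 B lineage genes (0.94) and all 11 megakaryocyte genes (3.80) lay above 0. So did the 8 erythroid genes tested (2.03), against a median of -0.0026 over all genes. Of the 11 skeletal muscle genes tested, 10 lay below 0 (median log2 -5.26), where 50.5% of all genes did, and 0 were called. The part of these lists was not tested.

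The difference between the effects of estradiol in the 2 genotypes was tested directly as an interaction, the WT effect minus the KO effect. Of the 34 members 1 was called, Egfl7, at 0.60 (SE 0.12, adjusted p = 0.0438); of all genes 0.31% were called in that direction, 0.84% in the other and 1.15% in either. Aplnr (0.54, SE 0.12, adjusted p = 0.0585), Podxl (0.67, SE 0.16, adjusted p = 0.0682), Emcn (0.57, SE 0.14, adjusted p = 0.0698) and Cldn5 (0.93, SE 0.25, adjusted p = 0.1003) came next and were not called. At an unadjusted p under 0.05 there were 13 members on the side of a larger WT effect (4.38% of all genes) and 0 on the other (7.2% of all genes), and 30 of the 34 lay above 0 (49.8% of all genes), with a median of 0.32. The pan-endothelial genes gave 0.33 for Cdh5 (SE 0.21, adjusted p = 0.643), 0.32 for Pecam1 (SE 0.12, adjusted p = 0.279), 0.40 for Kdr (SE 0.25, adjusted p = 0.631), 0.35 for Flt1 (SE 0.19, adjusted p = 0.561) and 0.32 for Tek (SE 0.17, adjusted p = 0.533). Egfl7's call was lost in 13 of 20 alternatives, with an adjusted p of up to 0.107, among them the replicate block (0.0516) and each one without a single WT estradiol or KO estradiol library. The estradiol effects and the KO against WT comparison under estradiol use the same libraries, so these counts are not separate evidence.

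Genes of the pathways around the 34 were read from lists of related genes. Of 30 other endothelial genes, 6 were lower (4.2% of all genes) and 1 higher (7.27% of all genes) in KO than in WT under estradiol. Ecscr, which steers endothelial migration, was at 12.0, 14.3 and 14.4 CPM in WT estradiol and at 6.31, 8.49 and 9.21 CPM in KO estradiol (log2 -0.76, SE 0.15, adjusted p = 0.00830). The scavenger receptor Stab1, Afap1l1, Myct1, Ets2 and She were the other 5 that were lower. The 1 that was higher was Hhex, a transcription factor also made in blood progenitors (log2 1.14, SE 0.23, adjusted p = 0.00886). 

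Among the 20 VEGF, angiopoietin and co-receptor genes, 19 were tested. Of these, 6 were lower in KO under estradiol (4.2% of all genes) and 0 higher (7.27% of all genes). Angpt4, a ligand of Tek, was at 36.3, 27.5 and 33.6 CPM in WT estradiol and at 12.4, 11.2 and 14.8 CPM in KO estradiol (log2 -1.34, SE 0.19, adjusted p = 0.000994). It was also the 1 gene of this list called in WT, where it rose with estradiol from 15.1 and 13.5 CPM (log2 1.18, SE 0.21, adjusted p = 0.0167), a call lost in 5 of 21 alternatives. Its level in KO placebo was 13.7, 9.05 and 15.7 CPM, below every WT estradiol library and spread wider than WT placebo or KO estradiol on both sides.

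Vegfc, the ligand of Flt4, was at 14.7, 16.2 and 14.5 CPM in WT estradiol and at 8.82, 7.06 and 9.74 CPM in KO estradiol (log2 -0.82, SE 0.14, adjusted p = 0.00318). Vegfa, the ligand of Kdr and Flt1, was at 184, 179 and 167 CPM against 136, 120 and 147 CPM (log2 -0.40, SE 0.10, adjusted p = 0.0261). Its call was lost in 5 of 21 alternatives. Both had WT estradiol libraries above all KO estradiol libraries. Vegfa with estradiol against placebo was not called in WT (0.28, SE 0.11, adjusted p = 0.276) or in KO (-0.02, SE 0.10, adjusted p = 0.948), nor was KO against WT under placebo (-0.09, SE 0.11, adjusted p = 0.791). Adm, the ligand of Calcrl and Ramp2, Sphk1, which makes the ligand of S1pr1, and Pdgfb, which recruits pericytes, were the other 3 that were lower. Under placebo Adm was at 5.44 and 6.19 CPM in WT and at 2.87, 3.19 and 3.31 CPM in KO. These groups did not overlap, but Adm was not called under placebo.

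**Figure D4:**
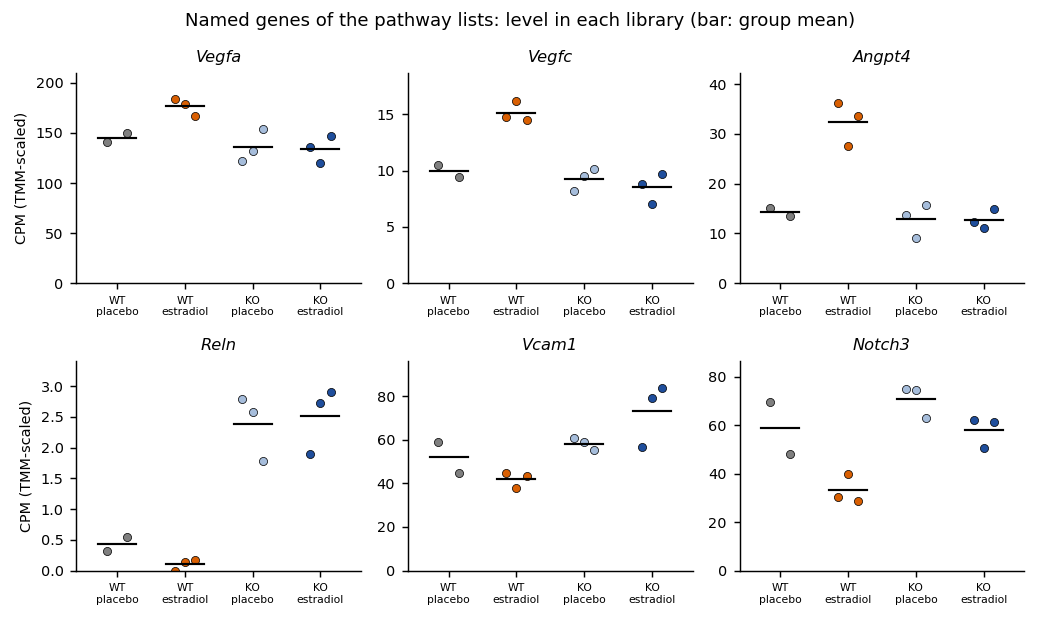
Level of 6 genes of the pathway lists in each library, in CPM on the vertical axis from 0, with the group mean as a bar. Angpt4 and Vegfc are highest in the 3 WT estradiol libraries, whereas Reln, Vcam1 and Notch3 are lowest in the 3 WT estradiol libraries.

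Of 12 Notch pathway partners, 2 (Nrarp and Dll1) were lower (4.2% of all genes) and 1 higher (7.27% of all genes) in KO under estradiol. The 1 higher was Notch3, the Notch receptor of vascular smooth muscle, at 30.5, 40.0 and 28.6 CPM in WT estradiol and 62.2, 50.5 and 61.3 CPM in KO estradiol (log2 0.81, SE 0.16, adjusted p = 0.00806). In WT it fell with estradiol, from 69.3 and 48.0 CPM (log2 -0.83, SE 0.18, adjusted p = 0.0410), a call lost in 11 of 21 alternatives. Notch4 and Notch3 lay on opposite sides of 0 in KO against WT under estradiol, and which cells of the tissue made either RNA was not tested. Of the 14 genes of pericytes and vascular smooth muscle, 13 were tested. The potassium channel subunit Abcc9 was the 1 that was lower in KO under estradiol (log2 -0.73, SE 0.19, adjusted p = 0.0368), where 4.2% of all genes were lower. Of the 13, 10 lay below 0 (50.2% of all genes).

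Of 6 lymphatic genes 5 were tested, and 3 were higher in KO under estradiol (7.27% of all genes), Reln, Mmrn1 and Fgl2. Reln, a secreted glycoprotein of lymphatic vessels and other tissues, had 7 counts in the 3 WT estradiol libraries together and 145 in the 3 KO estradiol libraries (log2 4.59, SE 0.56, adjusted p = 0.000347). Its levels were 14 counts over both WT placebo libraries and 163 counts over the 3 KO placebo libraries. Prox1, the transcription factor that defines lymphatic endothelium, had 5 to 25 counts per group, Ccl21a had none in any library, and Lyve1, Flt4 and Pdpn were not called in this comparison. Of 5 genes of activated endothelium, Vcam1 and Selp were higher in KO under estradiol. Vcam1, which captures white blood cells, was at 44.7, 37.9 and 43.5 CPM against 56.7, 79.2 and 83.7 CPM (log2 0.80, SE 0.14, adjusted p = 0.00450). Selp and Mmrn1 are also made by megakaryocytes and platelets, and 5 of 11 megakaryocyte and platelet genes were higher in KO under estradiol.

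The RNA of other cell types moved with the genotype comparison under estradiol, and the part of each in the results on the vessel genes was not tested. Higher in KO were 11 of 15 neutrophil, 12 of 12 B lineage and 5 of 10 cell division genes (7.27% of all genes). So were 2 of the 8 erythroid and 2 of the 6 adipocyte genes tested. Lower in KO were 8 of 12 macrophage, 6 of 10 osteoclast and 1 of 12 chondrocyte and fibrocartilage genes (4.2% of all genes). Of the 11 skeletal muscle genes tested, 0 were called. All 11 muscle genes tested nonetheless lay below 0 (median log2 -3.08), and their sums were at 32.0 to 243 CPM in WT estradiol, 10.7 to 14.6 in KO estradiol, 73.8 to 662 in KO placebo and 37.6 to 1006 in WT placebo. The summed macrophage genes were at 1029 to 1203 CPM in WT estradiol, 659 to 807 in KO estradiol, 737 to 743 in KO placebo and 791 to 855 in WT placebo. The osteoclast genes were at 12906 to 13294 CPM in WT estradiol, 8415 to 9943 in KO estradiol, 9054 to 10297 in KO placebo and 9265 to 11144 in WT placebo. Both lists were highest in the same 3 WT estradiol libraries as the vessel genes. The B lineage genes were at 23.4 to 28.1 CPM in WT estradiol and at 199 to 356 CPM in KO estradiol. The 11 megakaryocyte and platelet genes had a median log2 difference of 5.29, and those other than Itgb3, which many cell types make, were at 17.5 to 19.99 CPM in WT estradiol and at 14.6, 108 and 41.1 CPM in KO estradiol. Of the 12 chondrocyte and fibrocartilage genes 8 lay below 0 (median log2 -0.34), and the 1 called was Col10a1, the collagen of hypertrophic chondrocytes. It was at 1511 to 2878 CPM in WT estradiol and 676 to 862 CPM in KO estradiol (log2 -1.55, SE 0.23, adjusted p = 0.00256). Under placebo it was at 2107 and 1615 CPM in WT and at 675, 594 and 881 CPM in KO. These groups did not overlap either, but Col10a1 was not called under placebo. Without WT placebo replicate 2 and KO estradiol replicate 2, an alternative chosen after the data were seen, 9 of the 34 vessel genes were lower in KO under estradiol and 0 higher; the neutrophil genes of the 2 KO estradiol libraries left in were at 1309 and 1647 CPM, above all of WT estradiol.

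**Figure D5:**
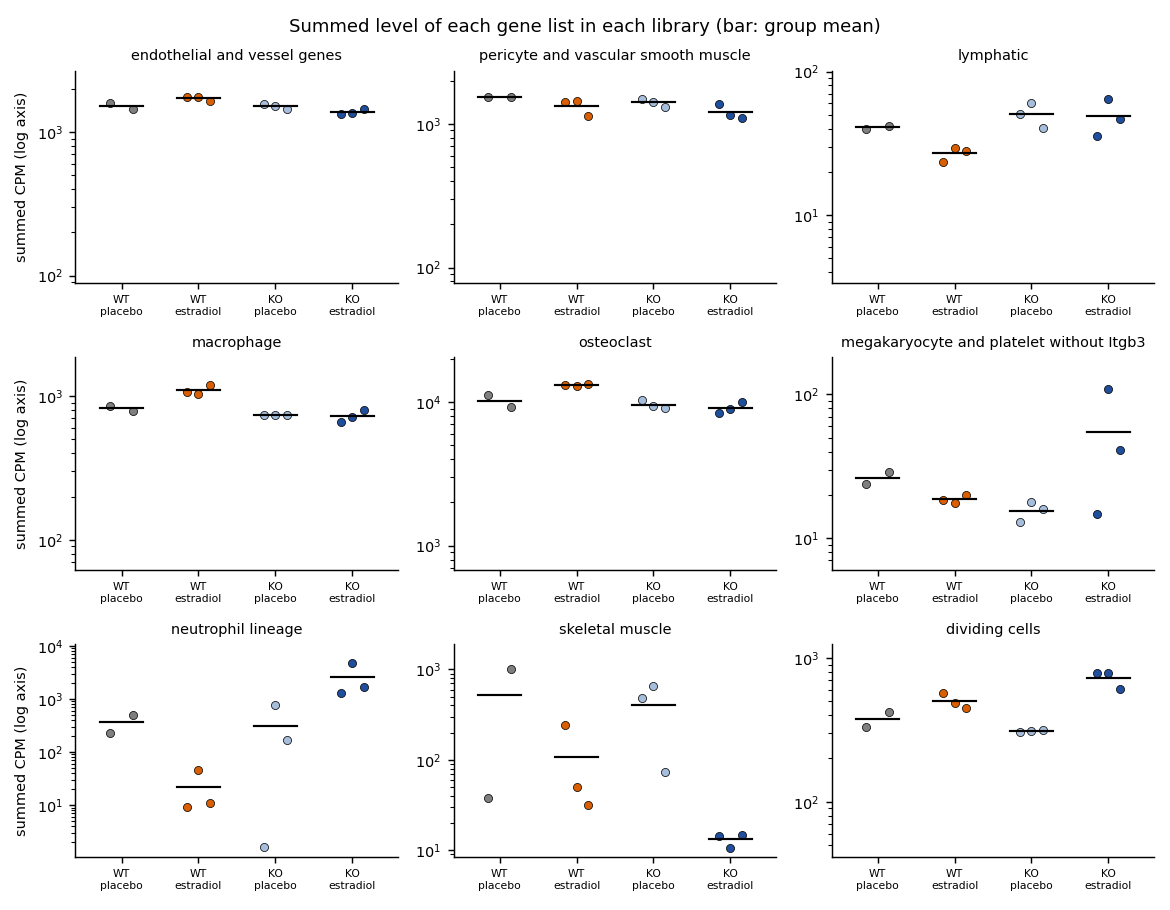
Summed level of the 34 vessel genes and of 8 lists of marker genes in each library, in CPM on a log axis, with the group mean as a bar. The vessel, macrophage and osteoclast sums are highest in the 3 WT estradiol libraries, and the neutrophil sums, from 1.61 to 4750 CPM over the 11 libraries, are highest in the 3 KO estradiol libraries.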

How the data were processed

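Poly-A RNA of 11 libraries was measured in 4 groups. The submitters' processing notes name bcl2fastq 2.17, the aligner TopHat and the genome build mm9. The sources used here do not give the counting program, its annotation or its use of strand. The authors deposited raw whole-number counts for 23420 gene symbols, and 0 columns were left unmapped. They also deposited tables of pairwise comparisons, whose log2 fold changes and raw and adjusted p-values are described per the file headers; only counts of members called are quoted from them. A test score in these tables was not used.

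From the counts, R 4.3.3 with edgeR 4.0.16 kept genes by filterByExpr (minimum count 10, minimum total 15), scaled by TMM and fitted 1 robust quasi-likelihood model to the 4 groups over all 11 libraries (7 residual degrees of freedom). Adjusted p-values are Benjamini-Hochberg over 14531 genes, called under 0.05; SE is the absolute log2 fold change over the square root of F. CPM is per M (1e6) of the scaled total. Alternatives used DESeq2 1.42.0, limma 3.58.1 (voom), other scalings, no filter, an adjusted p under 0.1, a replicate block, the groups compared alone, and fits without each library. On simulated data the fit recovered 59 of 100 genes changed 1.5-fold and 94 of 100 changed 2-fold for KO against WT under estradiol (14368 genes). It recovered 58 and 93 for KO against WT under placebo (14342 genes), and 67 and 96 for estradiol in KO (14368 genes). For estradiol in WT it recovered 49 and 92 (14366 genes). The changed genes were drawn only from better-detected ones, above the level of members such as Lyve1 and Vwf, so recovery at low levels was not measured. Deviations of the 3 same-numbered pairs of KO placebo and KO estradiol libraries were correlated at 0.279, 0.435 and 0.203, a pairing from the data only. KO against WT under placebo had only 2 pairs (0.143 and 0.172). For KO against WT under estradiol the pairs gave 0.107, 0.0443 and 0.0976. For estradiol in WT the 2 pairs were both below 0 (-0.148 and -0.202).

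The members, the related gene lists and the tests were chosen with earlier results of these data known. Described in full are members called in any comparison, the 5 with the smallest p where fewer than 5 were called, and always Emcn, Cdh5, Pecam1, Kdr, Flt1, Tek and Egfl7; of the lists, up to 4 called genes per comparison, and Vegfa. Other genes named as background or for their markers were chosen after their values were seen.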

Additional observations from a re-analysis of the deposited data

Results flagged for a closer look

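One result was picked out because an effect differed between groups by a test of the difference itself. The log2 effect of estradiol on Egfl7 in WT minus that in KO was 0.60 (SE 0.12, adjusted p = 0.0438 by edgeR's quasi-likelihood test); the 3 WT estradiol libraries lay above both WT placebo libraries, and the 3 KO estradiol libraries below all 3 KO placebo libraries. The call was lost in 13 of 20 alternatives (adjusted p of up to 0.107), among them the fit with the replicate number as a block (0.60, adjusted p = 0.0516) and each fit without a single WT estradiol or KO estradiol library.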

How the results depend on the processing

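In KO against WT under estradiol the count of 12 members stayed between 10 and 15 under every change of scaling, tool, filter, threshold or groups tried, was 9 without WT placebo replicate 2 and KO estradiol replicate 2 together, and was between 7 (without WT estradiol replicate 1) and 14 when single libraries were left out. The counts of 0 for estradiol in KO and for genotype under placebo stayed at 0 in every alternative. For estradiol in WT the count of 1 became 0 with upper-quartile scaling, 6 with unscaled library totals, 4 with DESeq2, 0 with limma-voom, 3 at an adjusted p under 0.1 and 0 with the groups compared alone, and it ranged from 0 to 2 when single libraries were left out. For the interaction the count of 1 became 0, 3, 5, 0 and 4 under the first 5 of these settings and 0 without WT placebo replicate 2 and KO estradiol replicate 2 together, and it ranged from 0 to 2 without single libraries. Unscaled totals moved the median log2 difference of all genes to 0.14 for estradiol in WT and to 0.10 for genotype under placebo, with the members at 0.36 and 0.13 and with 32 and 24 of the 34 above 0. The cause of these changes was not tested. The reversals were all in values that were not called. With unscaled totals they were Vegfa for estradiol in KO (0.031) and Emcn (0.066) and Vegfa (0.013) for genotype under placebo, and with upper-quartile scaling Tek for genotype under placebo (-0.00589). Without WT placebo replicate 2 and KO estradiol replicate 2 together they were Cdh5 for estradiol in WT (-0.070), Vegfa for estradiol in KO (0.048), and Cdh5 (-0.20), Pecam1 (-0.0024), Kdr (-0.12), Flt1 (-0.031) and Tek (-0.13) for genotype under placebo. Without single libraries the log2 difference ranged from -0.073 to 0.50 for Cdh5 and from -0.0018 to 0.30 for Tek (both lowest without WT placebo replicate 2) for estradiol in WT, and from -0.092 to 0.073 for Vegfa for estradiol in KO, where it lay above 0 without KO placebo replicate 3 (0.073) or KO estradiol replicate 2 (0.067). For genotype under placebo it ranged from -0.21 to 0.37 for Cdh5, from -0.0064 to 0.16 for Pecam1, from -0.12 to 0.41 for Kdr, from -0.035 to 0.27 for Flt1 and from -0.14 to 0.16 for Tek, all lowest without WT placebo replicate 2 (Tek also -0.011 without KO placebo replicate 2), from -0.12 to 0.014 for Emcn (0.012 without WT placebo replicate 1) and from -0.098 to 0.14 for Egfl7 (-0.028 without KO placebo replicate 1).

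With the replicate number as a block, the counts were 11 for KO against WT under estradiol, 1 for estradiol in WT (Emcn), 0 for estradiol in KO, 1 for the interaction (Podxl, not Egfl7) and 0 for genotype under placebo. In the labels, same-numbered libraries share only that number. Of all 15 same-numbered pairs, 10 had deviations correlated above 0.1 (from -0.202 to 0.435), among them all 3 pairs of KO placebo and KO estradiol. Of the 11 libraries, 8 correlated best with their own number, a hint from the data and not from the design. In the simulated data, where only better-detected genes were changed, between 49 and 67 of 100 differences of 1.5-fold were called per comparison. A member that was not called therefore cannot be read as unchanged.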
